A study of Mus musculus with 26 samples.

Results

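Macrophage genes of mouse subcutaneous inguinal white adipose tissue were examined as a group of 37 genes. They were chosen by gene name, and each was read at its array probe of highest mean, out of 26154 gene names in the table of array values. All 37 were measured, and each was well above background on all 26 arrays. They were parted into 14 genes found in most macrophages, 9 genes of resident macrophages, 5 genes of lipid-associated macrophages and 9 genes of monocyte-type cells or their recruitment.

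Macrophages are the main immune cells of lean fat. Resident adipose macrophages take up debris, iron and lipoproteins and carry scavenger and lectin receptors such as CD206, CD163 and the folate receptor beta. Lipid-associated macrophages gather around dying fat cells and clear lipid, and monocytes recruited through chemokine receptors such as CCR2 renew part of the pool. The inguinal fat pad also holds a lymph node, whose sinus macrophages carry Siglec1, Marco and Timd4. Several of the genes are not confined to macrophages. For example, Itgax, Clec10a and Mgl2 are also expressed by dendritic cells, Cd84 by lymphocytes, and Lgals3, Tlr4 and Ccl2 by many cell types. These examples are not a complete list, and the other genes are not taken as confined to macrophages.

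The mice were C57BL6/J males in 2 lines. Total ChREBP KO mice (labelled ChREBPtotal_KO, 7 arrays) are Mlxipl-null and lack both isoforms of the glucose-responsive transcription factor ChREBP in every cell, and ChREBPβ KO mice (ChREBPbeta_KO, 5 arrays) carry a CRISPR/Cas9 deletion in the exon used only by the shorter isoform, also in every cell. Each KO had WT mice of its own line (ChREBPtotal_WT, 7 arrays, and ChREBPbeta_WT, 7 arrays). All 4 groups were fed a regular diet, fasted for 24 h and then given food and water with 20% glucose for 18 h. The labels give neither the age of the mice nor which founder line the ChREBPβ KO mice came from. The mice came from several litters, and no label says which mice share one.

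Values are log2 intensities after quantile normalization, and differences are differences of group means on that scale. An array had 70.2% to 76.5% of its spots detected above background, and the genes of adipocytes were bright on every array (mean of 10 genes between 15.3 and 16.1). Mlxipl at its brightest probe lay between 13.6 and 14.4 in both KO groups and between 15.2 and 16.5 in both WT groups, so the arrays did not overlap. A gene was called at an adjusted p of 0.05 in limma, adjusted over 40168 probes.

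The arrays differed in lymphocyte content before any macrophage gene was considered. The lymphocyte score, the mean log2 value of 18 genes of B and T cells on an array, was between 10.4 and 12.02 in WT of the total line, between 7.40 and 10.8 in total ChREBP KO, between 6.75 and 7.67 in WT of the ChREBPβ line and between 6.70 and 8.40 in ChREBPβ KO. All 18 lymphocyte genes and all 5 lymph node stroma genes, among them Ccl21a and Glycam1, were called lower in total ChREBP KO than in its WT. Of the lymphocyte genes, Blk was well above background on 7, 3, 0 and 1 arrays of these groups, and the other 17 on every array. The skeletal muscle score (10 genes) ran from 6.33 to 12.0 in WT of the total line and from 6.27 to 13.1 in total ChREBP KO.

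**Figure D1:**
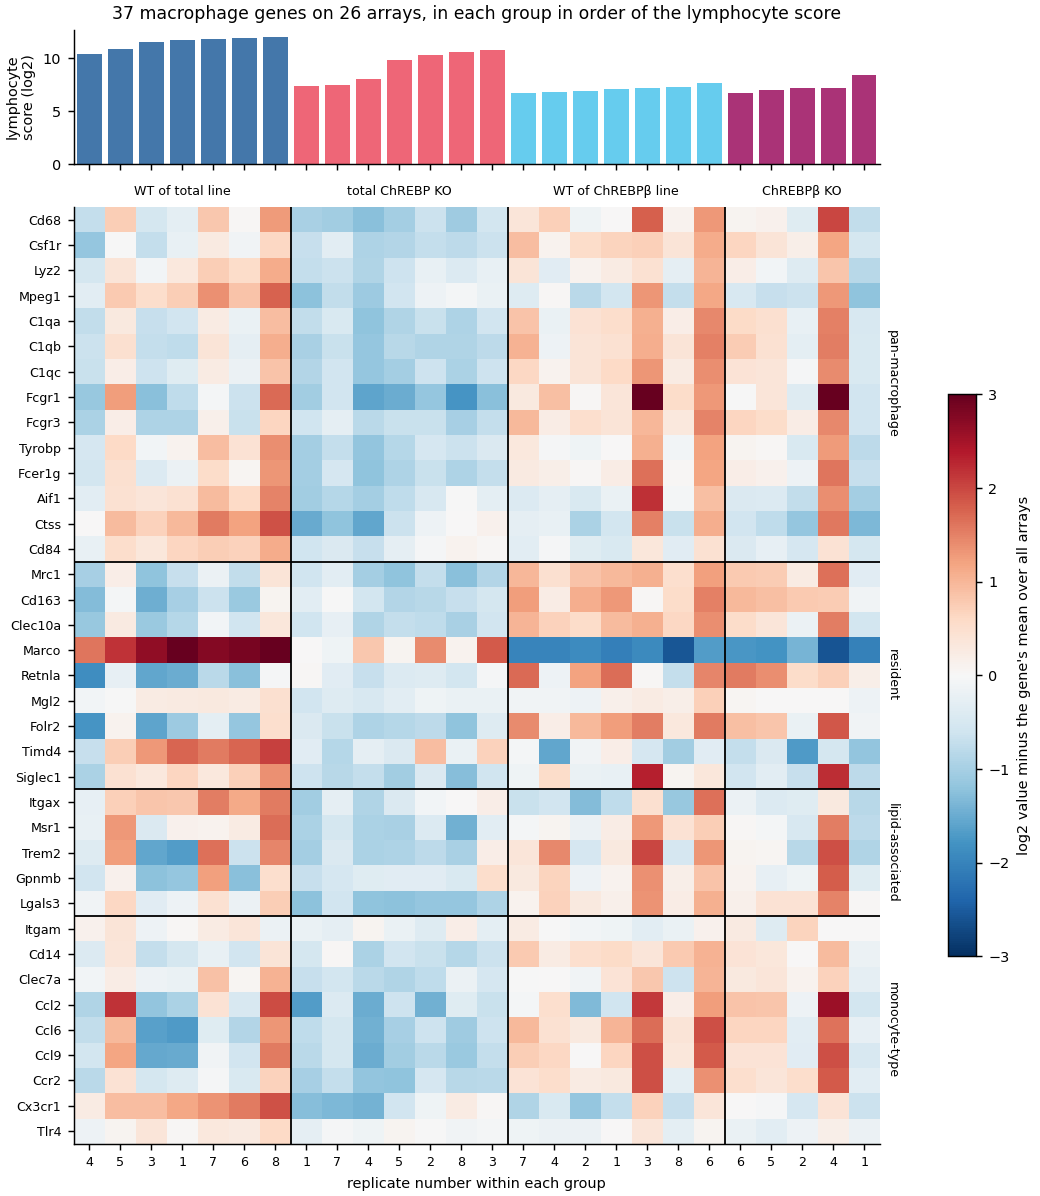
Upper panel, lymphocyte score (mean log2 value of 18 lymphocyte genes) of each array; lower panel, log2 value of each of the 37 macrophage genes minus its mean over all 26 arrays, with genes by class and arrays by group and by rising lymphocyte score. The 7 total ChREBP KO arrays are low in most rows, and Marco is high in WT of the total line and low in both groups of the ChREBPβ line.

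Total ChREBP KO was compared with its WT to see which macrophage genes change when both isoforms are lost. Of the 37 genes, 20 were called lower and 0 higher. Of all 26154 genes, 20.2% were called lower and 25.7% higher. The median difference of the 37 genes was -0.82, against 0.05 for all genes, and 33 of 37 differences were negative. WT replicate 8 of the total line was the highest WT array in 33 of the 37 genes, and without it the median was -0.64 and 16 genes were called lower. Bulk RNA cannot tell fewer macrophages from less RNA of these genes per macrophage. Lymphocyte and lymph node stroma genes were lower in the same comparison, and 8 of 10 adipocyte and 2 of 10 muscle genes were called higher. All 10 muscle genes had a positive difference, with a median of 2.42. The part of these cell types in the macrophage differences was not tested beyond the covariate fit given further on.

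All 14 pan-macrophage genes had a negative difference in total ChREBP KO, and 10 were called lower. Ctss lay between 13.17 and 15.06 (median 14.12) in WT of the total line and between 11.60 and 13.29 (median 12.51) in total ChREBP KO. Ctss encodes the lysosomal protease cathepsin S, and the difference was -1.74 (SE 0.43, adjusted p = 0.00172), a 3.35-fold lower level. Tyrobp lay between 11.52 and 13.42 (median 12.46) in WT of the total line and between 10.84 and 11.59 (median 11.31) in total ChREBP KO. Tyrobp, the signalling adaptor of TREM2 and related receptors, differed by -1.17 (SE 0.29, adjusted p = 0.00184). Cd84 lay between 8.13 and 9.46 (median 8.99) in WT of the total line and between 7.65 and 8.44 (median 8.08) in total ChREBP KO, a difference of -0.82 (SE 0.19, adjusted p = 0.000985) in this receptor of the SLAM family. The highest KO array lay above the lowest WT array in each of these 3 genes.

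Cd68 lay between 11.05 and 13.05 (median 11.82) in WT of the total line and between 10.52 and 11.22 (median 10.75) in total ChREBP KO. Cd68, a lysosomal glycoprotein used as a macrophage marker, was 2.18-fold lower, at -1.12 (SE 0.36, adjusted p = 0.0132), and KO arrays were held in a narrow range while WT arrays were spread widely. The difference was -1.39 for Mpeg1 (perforin-2), -1.21 for Aif1 (IBA1), -1.03 for Fcer1g (the Fc receptor gamma chain), -0.89 for Lyz2 (lysozyme), -0.83 for C1qb and -0.76 for C1qc, all called. C1qa lay between 10.58 and 12.25 (median 11.13) in WT of the total line and between 10.12 and 10.88 (median 10.60) in total ChREBP KO, and this subunit of the complement recognition molecule missed the threshold at -0.68 (SE 0.28, adjusted p = 0.0534). Csf1r lay between 12.14 and 13.91 (median 13.19) in WT of the total line and between 12.36 and 12.98 (median 12.58) in total ChREBP KO. Csf1r, the receptor for the macrophage growth factor CSF1, missed it at -0.52 (SE 0.23, adjusted p = 0.0671), as did Fcgr1 (-1.14) and Fcgr3 (-0.32). Of the called genes, C1qb lost its call without WT replicate 5, 7 or 8 of the total line, and C1qc without WT replicate 8.

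**Figure D2:**
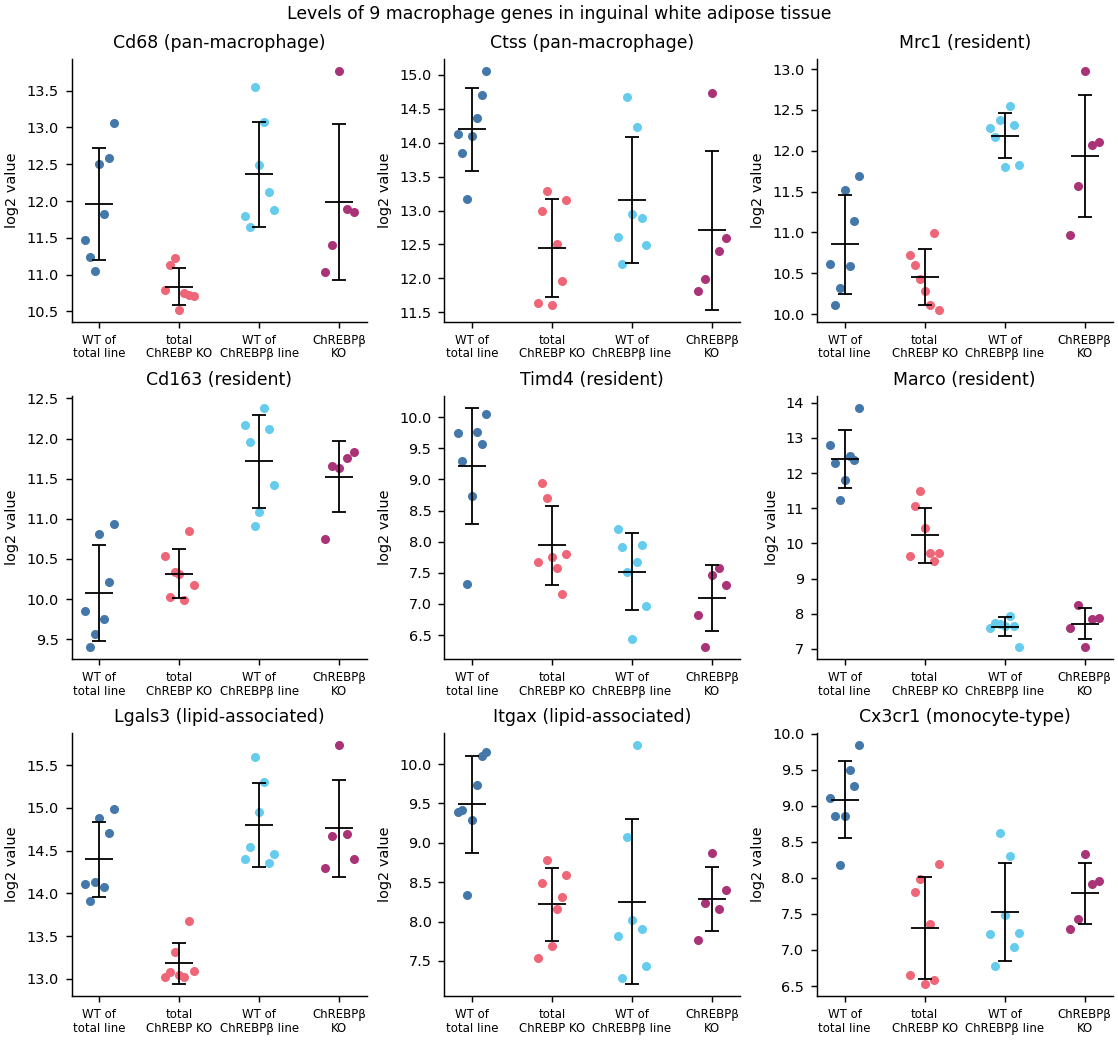
Log2 values of 9 macrophage genes by group; points are arrays (7, 7, 7 and 5), and lines give the mean and SD. Lgals3 does not overlap between total ChREBP KO and its WT, Mrc1 and Cd163 are higher in both groups of the ChREBPβ line than in most arrays of the total line, and Marco steps down from WT of the total line to total ChREBP KO to the ChREBPβ line.

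Resident genes split. Of 9 genes, 4 were called lower in total ChREBP KO and 0 higher, with a median difference of -0.40. The 4 were Marco, Mgl2, Timd4 and Siglec1. Marco lay between 11.23 and 13.85 (median 12.38) in WT of the total line and between 9.51 and 11.48 (median 9.73) in total ChREBP KO. Marco, a scavenger receptor (chr1:122371115-122371134 for its probe in mm9), was 4.53-fold lower, at -2.18 (SE 0.32, adjusted p = 6.01e-06), the largest difference of the 37 genes. Its groups overlapped only through the highest KO array. Mgl2 lay between 14.35 and 14.91 (median 14.68) in WT of the total line and between 13.86 and 14.29 (median 14.12) in total ChREBP KO. Mgl2, a galactose-type lectin, differed by -0.53 (SE 0.11, adjusted p = 0.000271), but no KO array reached the lowest WT array. Its other, dimmer probe differed by 0.00 (adjusted p = 0.996 in limma), so the difference rests on 1 probe. Its groups were 1 of the 2 pairs that did not overlap among the 37 genes, Lgals3 being the other, while 14.6% of all genes did not overlap.

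Timd4 lay between 7.32 and 10.05 (median 9.57) in WT of the total line and between 7.16 and 8.94 (median 7.75) in total ChREBP KO. Timd4 encodes TIM-4, a receptor for phosphatidylserine on dying cells that marks long-lived resident macrophages, and it differed by -1.27 (SE 0.36, adjusted p = 0.00504), with WT replicate 4 far below the other WT arrays. Siglec1 lay between 7.11 and 9.45 (median 8.54) in WT of the total line and between 6.80 and 7.64 (median 7.35) in total ChREBP KO. Siglec1, the sialic acid receptor CD169, differed by -1.20 (SE 0.41, adjusted p = 0.0195) and missed the threshold without WT replicate 8. Its other, dimmer probes differed by -0.09 and -0.53 without a call.

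The other 5 resident genes were not called. Mrc1 lay between 10.11 and 11.69 (median 10.61) in WT of the total line and between 10.05 and 11.00 (median 10.43) in total ChREBP KO, a difference of -0.40 (SE 0.25, adjusted p = 0.207) in the mannose receptor CD206. Cd163 lay between 9.40 and 10.93 (median 9.86) in WT of the total line and between 9.99 and 10.85 (median 10.31) in total ChREBP KO. For Cd163, the haemoglobin-haptoglobin receptor, the difference was 0.24 (SE 0.25, adjusted p = 0.459), and the KO range lay within that of WT. The difference was 0.00 (SE 0.34, adjusted p = 0.992) for Folr2, -0.23 (SE 0.26, adjusted p = 0.497) for Clec10a and 0.70 (SE 0.35, adjusted p = 0.106) for Retnla, a protein of alternatively activated macrophages. Among the alternative fits, Retnla passed as higher in KO after 75th percentile scaling (log2 difference 0.84) and in a fit of the total line alone.

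Of the 5 lipid-associated genes, 3 were called lower in total ChREBP KO, with a median difference of -1.20. Lgals3 lay between 13.91 and 14.98 (median 14.14) in WT of the total line and between 13.02 and 13.68 (median 13.08) in total ChREBP KO. Lgals3 encodes galectin-3, a lectin of phagocytes that is also found in other cells (probe at chr14:48005414-48005473, mm9), and its 2.33-fold lower level, at -1.22 (SE 0.22, adjusted p = 9e-05), left a gap between every KO array and every WT array. Msr1 lay between 5.79 and 7.89 (median 6.35) in WT of the total line and between 4.78 and 5.91 (median 5.27) in total ChREBP KO. Msr1, scavenger receptor A, differed by -1.20 (SE 0.33, adjusted p = 0.00425). Itgax lay between 8.34 and 10.15 (median 9.42) in WT of the total line and between 7.54 and 8.78 (median 8.31) in total ChREBP KO, a difference of -1.27 (SE 0.35, adjusted p = 0.00467) in this integrin chain (CD11c). Its other, dimmer probe differed by -0.05 without a call.

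Trem2, the lipid receptor that defines these cells, was not called. Trem2 lay between 7.68 and 10.99 (median 8.95) in WT of the total line and between 8.34 and 9.55 (median 8.42) in total ChREBP KO, and the difference was -0.71 (SE 0.53, adjusted p = 0.28). The WT arrays of Trem2 ran from below every KO array to above all of them. Gpnmb differed by 0.03 (SE 0.36, adjusted p = 0.958). Of 11 further lipid-associated genes, 3 were called higher and 3 lower in total ChREBP KO. The largest of these differences were those of Nr1h3 (liver X receptor alpha, 0.86) and Apoe (0.70), both of which adipocytes also express, and Spp1 (osteopontin) differed by -0.62 (SE 0.65, adjusted p = 0.456).

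The monocyte-type genes had a negative difference in 9 of 9 cases at the probes used, with 3 called lower and a median of -0.71. Cx3cr1 lay between 8.17 and 9.84 (median 9.11) in WT of the total line and between 6.53 and 8.19 (median 7.36) in total ChREBP KO. Cx3cr1, the receptor for fractalkine on patrolling monocytes and some tissue macrophages (probe at chr9:119957811-119957870, mm9), was 3.44-fold lower, at -1.78 (SE 0.31, adjusted p = 4.77e-05). Clec7a lay between 9.47 and 10.72 (median 9.73) in WT of the total line and between 8.76 and 9.49 (median 8.97) in total ChREBP KO. Clec7a, the beta-glucan receptor dectin-1, differed by -0.89 (SE 0.22, adjusted p = 0.0023), and its other, dimmer probe by -0.16 without a call. Tlr4 lay between 9.61 and 10.36 (median 10.03) in WT of the total line and between 9.49 and 9.84 (median 9.70) in total ChREBP KO, a small difference of -0.29 (SE 0.10, adjusted p = 0.0244) in the endotoxin receptor. The probes of Tlr4 disagreed, since 1 of its 2 other probes was called higher in KO (0.35, adjusted p = 0.0148 in limma) and the mean of all 3 differed by 0.05 without a call, so its direction is uncertain. Without KO replicate 1 or WT replicate 8 of the total line it was not called either.

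The recruitment genes were not called. Ccr2 lay between 8.33 and 9.83 (median 8.74) in WT of the total line and between 7.94 and 8.62 (median 8.31) in total ChREBP KO, a difference of -0.73 (SE 0.30, adjusted p = 0.0513) in the receptor that brings monocytes out of the marrow. Ccl2 lay between 10.07 and 13.41 (median 10.78) in WT of the total line and between 9.57 and 10.88 (median 10.58) in total ChREBP KO, a difference of -1.11 (SE 0.56, adjusted p = 0.109) in its ligand, with a far wider spread in WT than in KO. For Ccl6, Ccl9, Cd14 and Itgam the difference was -0.43, -0.71, -0.35 and -0.27. The other probe of Itgam was called higher in KO (0.22, adjusted p = 0.0401 in limma), so its direction depends on the probe.

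**Figure D3:**
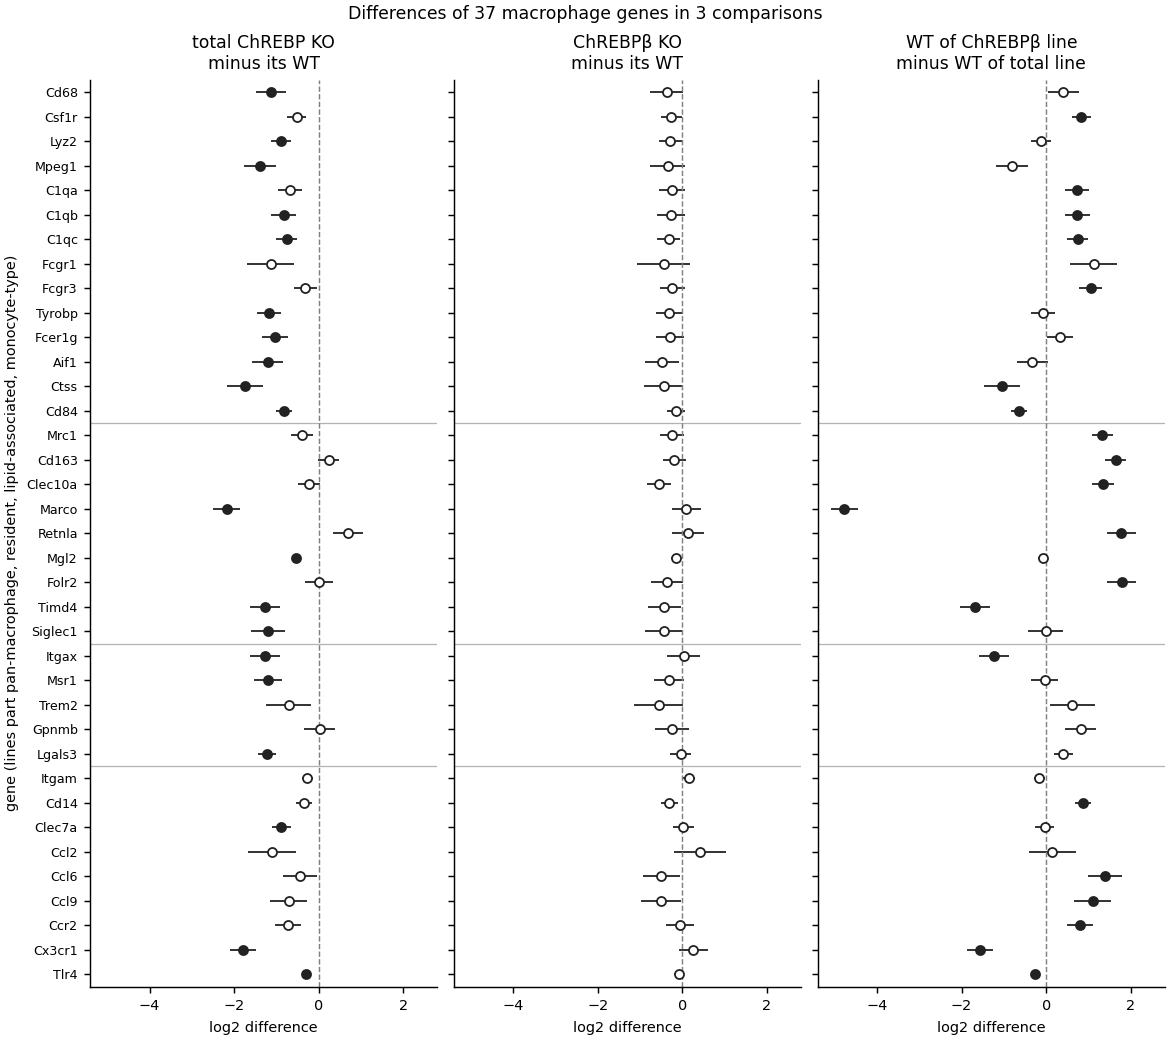
Log2 difference of each of the 37 genes in 3 comparisons, with bars for the SE from limma; filled points passed an adjusted p of 0.05. The first comparison has 20 filled points, all below 0, the next has 0, and the last has 14 above and 7 below 0; the first and last share the WT arrays of the total line.

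Further genes of the same cells, not among the 37, were counted in this comparison. Of 20 other phagocyte genes, 16 were called lower and 0 higher, among them Cd53 (-1.84), which encodes a tetraspanin of white blood cells. Adgre1, which encodes F4/80, was not called at -0.59 (SE 0.34, adjusted p = 0.16). Of 14 other resident genes, 2 were called lower and 1 higher, namely Ccl8 (-1.64), Gas6 (-0.32) and Maf (0.38), with a median of -0.02, and Lyve1 differed by -0.06. Of 12 other monocyte and inflammation genes, 4 were called lower, with the largest differences in Il1b (-1.79) and Plac8 (-1.62), and Nos2 was called higher (0.46), while Ly6c2 was not called (-0.19). Of 6 ligands and receptors of recruitment and growth, 3 were called lower, among them Cxcr4 (-1.23) and Csf1 (-0.48), and Il34, the other ligand of the CSF1 receptor, was called higher (0.62). Many phagocyte genes, Cd53 among them, and Cxcr4 are also expressed by lymphocytes or other white blood cells.

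The difference varied with the wash batch named in the labels. Within batches 1, 2, 3 and 4 the median difference of the 37 genes was -0.07, -0.24, -1.13 and -1.49, with 1 or 2 arrays per group in each batch, and 24, 27, 35 and 36 genes were lower. Of the 20 called genes, 17 were lower in every batch, and the others were Lyz2, Timd4 and Siglec1. Marco differed by -0.67, -1.49, -2.06 and -3.50 in the 4 batches, Lgals3 by -0.97, -0.92, -1.41 and -1.49, Cx3cr1 by -0.86, -1.18, -1.81 and -2.58, and Cd68 by -0.04, -0.22, -1.55 and -2.08. With the batch as a block, 21 genes were called lower. Arrays of batches 1 and 2 were scanned on day 1 and those of batches 3 and 4 on day 2. Why batches differed was not tested.

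ChREBPβ KO was compared with its own WT for the loss of the shorter isoform alone. Of the 37 genes, 0 were called in limma (0 also at an unadjusted p of 0.05). Of all genes, 0.0421% were called lower. The median difference was -0.27, against 0.00 for all genes, and 30 of 37 differences were negative. This median moved with single arrays, to -0.52 without KO replicate 4, -0.09 without KO replicate 1 and -0.16 without WT replicate 3 or 6 of that line. Within batches 1, 3 and 4, which hold 1 to 3 arrays per group, it was -0.42, 0.31 and -0.32, with both signs.

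The KO arrays of the ChREBPβ line, given here as replicates 1, 2, 4, 5 and 6, overlapped with WT in all 37 genes, and 0.356% of all genes did not overlap. Cd68 lay between 11.65 and 13.56 (median 12.13) in WT and at 11.03, 11.41, 13.77, 11.89 and 11.85 on the 5 KO arrays. Ctss lay between 12.22 and 14.67 (median 12.88) in WT and at 11.82, 11.99, 14.73, 12.40 and 12.59 on the 5 KO arrays. In both genes replicate 4 was above all WT arrays, and the other KO arrays lay below the middle of WT. The differences were -0.38 (SE 0.40, adjusted p = 0.915) for Cd68 and -0.45 (SE 0.47, adjusted p = 0.916) for Ctss, and each SE was larger than the difference. Replicate 4 was the highest KO array of the line in 31 of the 37 genes.

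Other genes varied among the KO arrays as follows. Tyrobp lay between 11.88 and 13.23 (median 12.04) in WT and at 11.23, 11.55, 13.29, 12.04 and 12.10 on the 5 KO arrays. Cd84 lay between 7.89 and 8.80 (median 8.04) in WT and at 7.81, 7.85, 8.77, 8.10 and 7.92 on the 5 KO arrays. Csf1r lay between 13.40 and 14.40 (median 13.96) in WT and at 12.77, 13.46, 14.47, 13.69 and 13.95 on the 5 KO arrays. In these 3 genes replicate 1 was the lowest KO array, below every WT array. C1qa lay between 11.13 and 12.77 (median 11.87) in WT and at 10.84, 11.11, 12.85, 11.82 and 11.91 on the 5 KO arrays. Mgl2 lay between 14.28 and 15.13 (median 14.58) in WT and at 14.28, 14.43, 14.43, 14.44 and 14.49 on the 5 KO arrays. Timd4 lay between 6.44 and 8.20 (median 7.68) in WT and at 6.83, 6.31, 7.47, 7.57 and 7.30 on the 5 KO arrays. Of these genes Mgl2 varied least among the KO arrays, and Timd4 was lowest in replicate 2.

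Lipid-associated genes were spread widely. Msr1 lay between 6.05 and 7.51 (median 6.44) in WT and at 5.45, 5.75, 7.76, 6.16 and 6.25 on the 5 KO arrays. Itgax lay between 7.28 and 10.24 (median 7.90) in WT and at 7.76, 8.23, 8.87, 8.16 and 8.40 on the 5 KO arrays. Trem2 lay between 8.84 and 11.35 (median 9.72) in WT and at 8.44, 8.52, 11.27, 9.42 and 9.43 on the 5 KO arrays. Replicate 4 was the highest KO array in each, and the highest WT array was above it in Itgax and Trem2. Clec7a lay between 9.05 and 10.70 (median 9.67) in WT and at 9.41, 9.77, 10.36, 10.03 and 9.96 on the 5 KO arrays. Tlr4 lay between 9.47 and 10.12 (median 9.64) in WT and at 9.58, 9.61, 9.94, 9.45 and 9.56 on the 5 KO arrays. Ccr2 lay between 8.85 and 11.06 (median 9.54) in WT and at 8.81, 9.66, 10.97, 9.50 and 9.64 on the 5 KO arrays. In these 3 monocyte-type genes replicate 4 was again highest and stayed below the highest WT array. Ccl2 lay between 9.91 and 13.38 (median 11.45) in WT and at 10.71, 11.11, 13.81, 12.08 and 12.11 on the 5 KO arrays, with replicate 4 above all WT arrays.

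The median difference was -0.30 for pan-macrophage genes, -0.25 for resident genes, -0.24 for lipid-associated genes and -0.06 for monocyte-type genes. Mrc1 lay between 11.80 and 12.55 (median 12.28) in WT and at 10.96, 11.57, 12.98, 12.07 and 12.11 on the 5 KO arrays, and Siglec1 lay between 7.85 and 10.41 (median 8.15) in WT and at 7.28, 7.38, 10.28, 7.76 and 7.49 on the 5 KO arrays. Trem2 differed by -0.56 (SE 0.58, adjusted p = 0.911), Ccr2 by -0.06 (SE 0.33, adjusted p = 0.995), and Ccl2, with a positive sign, by 0.42 (SE 0.61, adjusted p = 0.955). The differences of the 37 genes ran from -0.56 to 0.42. In the related lists 0 genes were called in ChREBPβ KO. The lymphocyte genes differed by between -0.01 and 0.40, and 0 of 18 were called.

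An interaction term then tested whether the KO effect differed between the lines, as the ChREBPβ effect minus the total effect. It shares its arrays with both KO comparisons. It was called for 3 of the 37 genes, Marco, Lgals3 and Cx3cr1, with a positive sign in each, that is, a difference between KO and WT that was less negative or positive in the ChREBPβ line. Of all genes, 10.2% were called in that direction, so 3 of 37 is a share near the background. For the other 34 genes a difference between the KOs was not shown. By the same term, 17 of 18 lymphocyte genes (median 2.57), 4 of 5 lymph node stroma genes and 6 of 20 other phagocyte genes were called positive. In the opposite direction, 4 of 10 adipocyte genes were called negative. The part of these cell types in the 3 calls was not tested beyond the covariate fit.

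Marco in the ChREBPβ line lay between 7.07 and 7.95 (median 7.66) in WT and at 7.60, 8.24, 7.05, 7.84 and 7.87 on the 5 KO arrays. The effects were -2.18 and 0.09, a difference between them of 2.27 (SE 0.47, adjusted p = 0.00135). Both groups of that line were below every array of the total line, and all were well above background. Lgals3 lay between 14.36 and 15.59 (median 14.54) in WT and at 14.29, 14.68, 15.73, 14.69 and 14.40 on the 5 KO arrays, and its effects of -1.22 and -0.04 differed by 1.18 (SE 0.33, adjusted p = 0.0123). Cx3cr1 lay between 6.77 and 8.62 (median 7.24) in WT and at 7.30, 7.44, 8.34, 7.91 and 7.95 on the 5 KO arrays, and its effects of -1.78 and 0.26 differed by 2.04 (SE 0.46, adjusted p = 0.00249). These 3 calls held when any 1 of the 26 arrays was left out, and they were lost with the lymphocyte score as a covariate, where Marco had 1.41 (adjusted p = 0.118), Lgals3 1.21 (adjusted p = 0.0892) and Cx3cr1 0.94 (adjusted p = 0.233).

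Promoters were read for these genes, the ones called in the interaction, and for 2 resident genes that were not called in total ChREBP KO. The sequences are the 250 bases before the gene's start in RefSeq annotation of GRCm38.p6, written 5′ to 3′ on the strand of the gene. Capitals mark GAGGAA, the core bound by the macrophage factor PU.1, or its reverse complement TTCCTC.
Marco, - strand, chr1:120505025-120505274: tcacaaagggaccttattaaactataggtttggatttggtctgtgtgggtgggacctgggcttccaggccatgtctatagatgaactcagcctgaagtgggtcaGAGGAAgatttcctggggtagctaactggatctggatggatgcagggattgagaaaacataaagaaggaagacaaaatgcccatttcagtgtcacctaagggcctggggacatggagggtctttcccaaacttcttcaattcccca
Lgals3, + strand, chr14:47373610-47373859: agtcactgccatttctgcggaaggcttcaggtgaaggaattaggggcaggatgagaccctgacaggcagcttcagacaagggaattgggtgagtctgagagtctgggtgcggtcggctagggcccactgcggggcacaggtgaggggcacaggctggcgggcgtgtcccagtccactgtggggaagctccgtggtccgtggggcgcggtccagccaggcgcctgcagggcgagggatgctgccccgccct
Cx3cr1, - strand, chr9:120068297-120068546: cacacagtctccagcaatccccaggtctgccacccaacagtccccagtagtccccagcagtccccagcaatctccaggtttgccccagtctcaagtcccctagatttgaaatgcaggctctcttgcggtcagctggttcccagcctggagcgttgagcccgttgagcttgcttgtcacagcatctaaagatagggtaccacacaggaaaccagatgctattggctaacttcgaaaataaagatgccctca
Mrc1, + strand, chr2:14229164-14229413: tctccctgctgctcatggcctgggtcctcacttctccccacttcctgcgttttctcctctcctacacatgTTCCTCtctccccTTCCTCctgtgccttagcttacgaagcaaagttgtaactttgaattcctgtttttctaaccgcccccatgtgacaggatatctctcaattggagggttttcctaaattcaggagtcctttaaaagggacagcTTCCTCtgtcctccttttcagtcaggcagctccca
Cd163, + strand, chr6:124304401-124304650: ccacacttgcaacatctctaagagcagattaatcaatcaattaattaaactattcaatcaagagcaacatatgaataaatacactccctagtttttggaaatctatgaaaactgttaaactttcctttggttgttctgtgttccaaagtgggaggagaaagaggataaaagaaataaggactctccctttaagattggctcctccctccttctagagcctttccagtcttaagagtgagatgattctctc

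Promoter sequences were found for 28 of the 37 genes, in 31 stretches of 250 bases. GAGGAA on either strand was in 16 of these 31 stretches (51.6%) and in 23.3% of all 32851 promoter stretches of the same length. Among the genes shown, Marco had 1 match and Mrc1 had 3, and Lgals3, Cx3cr1 and Cd163 had 0. The AP-1 site TGACTCA was in 4 of 31 stretches (12.9%), those of Cd68, Cd84, Folr2 and Itgax, against 4.46% of all, and the E-box CACGTG, of which ChREBP binds pairs, was in 0 of 31 against 6.02% of all. The GC content was 46.8% in the middle of the members' stretches and 52.4% in the middle of all. GAGGAA was held by genes called in total ChREBP KO, such as Ctss and Marco, and by uncalled ones, such as Mrc1 and Trem2. A match describes letters and not a bound site.

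Each KO had its own WT, and the WT mice of both lines were set side by side to see how the lines themselves differ. In WT of the ChREBPβ line, 14 of the 37 genes were called higher and 7 lower than in WT of the total line. Of all genes, 26.1% were called higher and 19.7% lower, so the share of lower genes was near the background. The median difference was 0.40, against 0.03 for all genes. Within batches 1, 2, 3 and 4 it was 0.73, 1.11, -0.03 and -0.42, with 8, 10, 20 and 23 genes lower. Its sign thus differed between batches, which hold 1 to 3 arrays per group. This comparison shares its WT of the total line with the total ChREBP KO comparison, so both move with those 7 arrays. The line and whatever else differed between these mice cannot be told apart.

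Resident genes held the largest differences in both directions. Mrc1 lay between 10.11 and 11.69 in WT of the total line and between 11.80 and 12.55 in WT of the ChREBPβ line, with no overlap, a difference of 1.33 (SE 0.25, adjusted p = 0.00013). Clec10a also did not overlap, at 1.35 (SE 0.26, adjusted p = 0.000129). Cd163 differed by 1.64 (SE 0.25, adjusted p = 9.44e-06), Folr2 by 1.78 (SE 0.34, adjusted p = 0.000113) and Retnla by 1.78 (SE 0.35, adjusted p = 0.000175), and each was higher in all 4 wash batches. Of the 14 other resident genes, 13 were called higher and 0 lower in WT of the ChREBPβ line, with a median of 1.27, among them Lyve1 (1.15), Cd209f (1.79) and Ccl24 (1.85). In the opposite direction, Marco differed by -4.78 (SE 0.32, adjusted p = 2.62e-10), a 27.5-fold lower level with no overlap, and Timd4 by -1.69 (SE 0.36, adjusted p = 0.000375). Mrc1, Clec10a and Marco were the 3 of 37 genes without overlap, while 16.9% of all genes did not overlap.

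Marco differed between these WT groups by -3.57, -4.82, -4.47 and -5.58 in the 4 batches, and Cd163 by 1.51, 1.80, 1.83 and 1.41. Other cell types moved in the same comparison. All 18 lymphocyte genes and 4 of 5 lymph node stroma genes were called lower in WT of the ChREBPβ line, and 4 of 4 mast cell genes and 7 of 8 genes of fibroblast-like progenitors were called higher. Their part in the macrophage differences was not tested beyond the covariate fit.

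Of the other classes, Csf1r (0.83), C1qa (0.73), C1qb (0.73), C1qc (0.74) and Fcgr3 (1.06) were called higher in WT of the ChREBPβ line, and Ctss (-1.04) and Cd84 (-0.65) lower. Among monocyte-type genes, Ccl6 (1.40), Ccl9 (1.096), Cd14 (0.86) and Ccr2 (0.80) were called higher, and Cx3cr1 (-1.56) and Tlr4 (-0.26) lower. Both other probes of Tlr4 were called higher (0.82 and 0.31) and the mean of its probes was 0.29, so its direction is uncertain here too. The probes also disagreed for Csf1r, whose other probe differed by -0.07 without a call, and for Mgl2, whose other probe was called higher (1.34) while the one used was not called. Itgax was the only lipid-associated gene called, and it was lower (-1.24), while its other, dimmer probe differed by -0.12 without a call. C1qb and Ctss rested on few arrays and passed in only 9 and 10 of the 26 fits with 1 array left out. Cd84 was the called gene that did not keep its direction in every batch.

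The relation of the 37 genes to lymph node content was examined within groups, since the score differs between them. It was computed within WT of the total line and WT of the ChREBPβ line, as 74 relations with adjusted p-values over all of them. No r is given within total ChREBP KO, where the scores left a gap of 1.73 in a range of 3.36, or within ChREBPβ KO, which has 5 arrays. A wash batch holds at most 3 arrays of a group, so no relation can be had within a batch.

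In WT of the total line, r was above 0 in 33 of 37 genes, with a median of 0.43, and 4 genes passed. Cx3cr1 had r = 0.91 (exact permutation p = 0.000198, adjusted p = 0.0147, n = 7) with rho = 1.00 (exact permutation p = 0.000397, adjusted p = 0.0294), and r = 0.98 without the 2 farthest arrays. Timd4 had r = 0.97 (exact permutation p = 0.000595, adjusted p = 0.022, n = 7) with rho = 0.96 (exact permutation p = 0.00278, adjusted p = 0.0998), and r = 0.94 without the 2 farthest arrays. Mgl2 had r = 0.95 (exact permutation p = 0.00218, adjusted p = 0.0404, n = 7) with rho = 0.79 (exact permutation p = 0.048, adjusted p = 0.273), and r = 0.74 without the 2 farthest arrays. Itgax had r = 0.90 (exact permutation p = 0.00198, adjusted p = 0.0404, n = 7) with rho = 0.93 (exact permutation p = 0.00675, adjusted p = 0.0998), and r = 0.75 without the 2 farthest arrays. By rank only Cx3cr1 passed. All 4 were among the 20 of 37 genes called lower in total ChREBP KO. The relation was computed at 1 probe of each gene, and the other, dimmer probes of Mgl2 and Itgax were not called in that comparison.

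Marco followed in the same group without passing, at r = 0.87 (exact permutation p = 0.00635, adjusted p = 0.0783, n = 7) with rho = 0.89 (exact permutation p = 0.0123, adjusted p = 0.152), and r = 0.77 without the 2 farthest arrays. Other genes had a low r over the 7 arrays. Lgals3 had r = 0.12 (exact permutation p = 0.76, adjusted p = 0.849, n = 7) with rho = 0.18 (exact permutation p = 0.713, adjusted p = 0.765), and r = 0.77 without the 2 farthest arrays. Cd163 had r = 0.19 (exact permutation p = 0.707, adjusted p = 0.848, n = 7) with rho = 0.46 (exact permutation p = 0.302, adjusted p = 0.639), and r = 0.87 without the 2 farthest arrays. In both genes r changed greatly when those 2 arrays were left out. For pan-macrophage genes the median r was 0.58, for resident genes 0.36, for lipid-associated genes 0.12 and for monocyte-type genes 0.08. Without the 2 farthest arrays these medians were 0.86, 0.83, 0.75 and 0.81. The arrays left are few, and their scores lay only between 11.51 and 12.02. Among them, WT replicate 8 of the total line had the highest score and was the highest WT array in 33 of 37 genes. The order of the classes and the size of these r values are therefore uncertain. In WT of the ChREBPβ line, where the score spanned only 0.92 with a gap of 0.44, r was above 0 in 36 of 37 genes and 0 passed, with the lowest adjusted p of 0.0763 by exact permutation in Mgl2 (r = 0.96, n = 7).

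**Figure D4:**
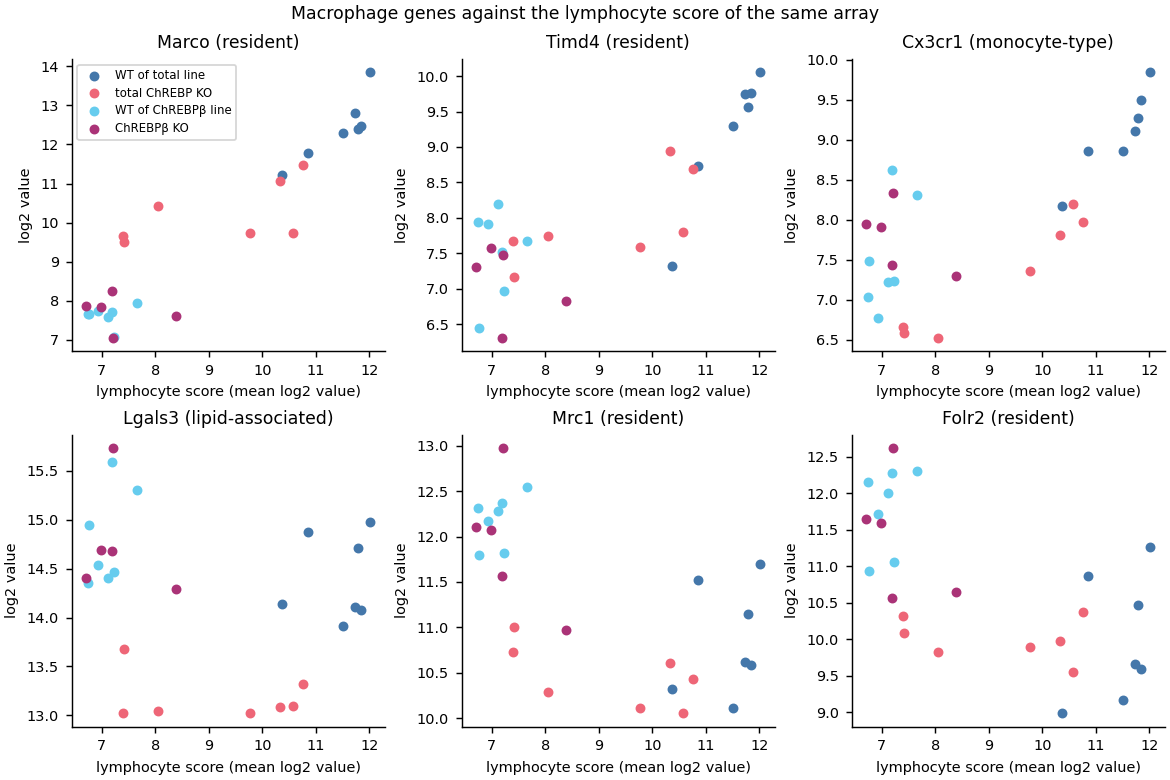
Log2 value of 6 macrophage genes (vertical axis) against the lymphocyte score (horizontal axis) on each of the 26 arrays, coloured by group. Marco, Timd4 and Cx3cr1 are high at high scores within WT of the total line, whereas Lgals3 is low on all 7 total ChREBP KO arrays whether their score is near 7.4 or above 10.

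The 7 total ChREBP KO arrays had lymphocyte scores of 7.40, 7.41, 8.05, 9.78, 10.3, 10.6 and 10.8. In that order Cx3cr1 was 6.66, 6.59, 6.53, 7.36, 7.81, 8.19 and 7.98. Ctss was 11.64, 11.96, 11.60, 12.51, 12.995, 13.16 and 13.29. Both genes were lowest on the 3 arrays of lowest score. Lgals3 was 13.02, 13.68, 13.04, 13.03, 13.08, 13.09 and 13.32, with its highest value at the second score. Marco was 9.65, 9.51, 10.43, 9.72, 11.06, 9.73 and 11.48, high on 2 of the 4 arrays of high score and low on the other 2. Mrc1 was 10.73, 11.00, 10.29, 10.11, 10.61, 10.05 and 10.43, with its highest values on the 2 arrays of lowest score.

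With the lymphocyte score of each array as a covariate in the fit, 2 of the 37 genes stayed called in total ChREBP KO, Marco and Lgals3. Marco then differed by -1.39 (adjusted p = 0.0179) and Lgals3 by -1.25 (adjusted p = 0.00785), close to its value without the covariate. The difference became -0.73 (adjusted p = 0.405) for Ctss, -0.40 (adjusted p = 0.599) for Timd4, -0.50 (adjusted p = 0.507) for Itgax and -0.78 (adjusted p = 0.122) for Cx3cr1, all smaller in size than without it. It was -1.13 (adjusted p = 0.11) for Msr1 and -0.85 (adjusted p = 0.289) for Cd68, which kept most of their size and lost the call. The median of the 37 genes was -0.62, and 35 of 37 differences were negative. In the total line only WT replicate 4, at 10.37, had a score within the KO range of 7.40 to 10.76. Score and genotype can thus hardly be told apart in this fit. The share of all genes called in it is not given, so the fall from 20 called genes cannot be read as particular to macrophage genes. Between the WT groups, where the scores do not overlap, Marco alone stayed called, at -3.25 (adjusted p = 0.0105), and there the covariate and the line cannot be told apart.

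**Figure D5:**
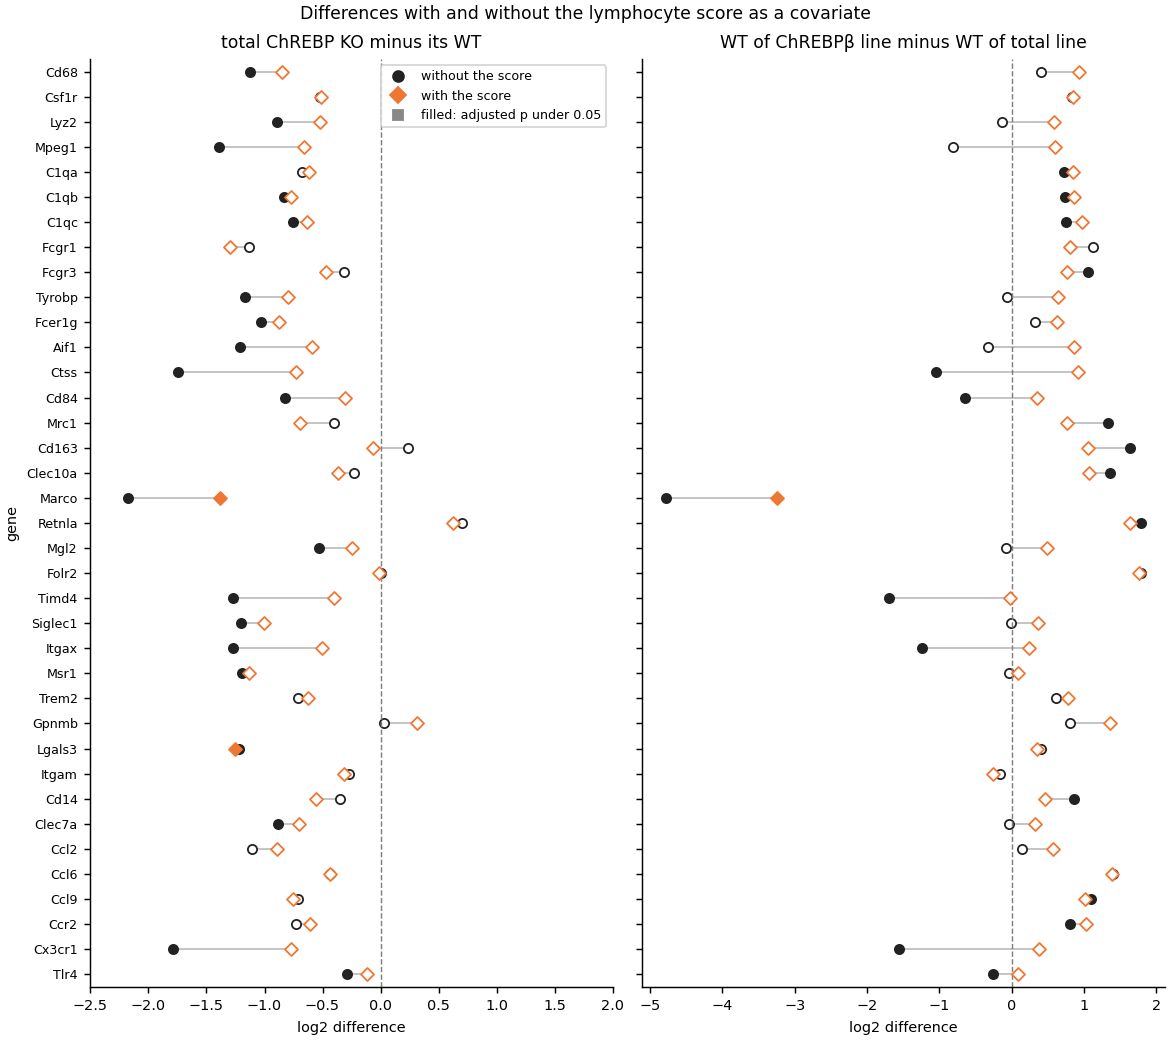
Log2 difference of each of the 37 genes without (circles) and with (diamonds) the lymphocyte score as a covariate, for total ChREBP KO against its WT (left) and for both WT groups (right); filled symbols passed an adjusted p of 0.05. With the score, Marco and Lgals3 stay filled on the left and Marco on the right.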

How the data were processed

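RNA of inguinal white adipose tissue from 26 mice was measured on 1-colour Agilent arrays. The authors extracted intensities with Feature Extraction 10.10.1.1 and deposited a table of log2 values, for which they took median pixel intensities, kept spots that passed quality calls, normalized them by quantiles and used the median where a probe had several spots. Their tools included limma. That table was used here, and the deposited scanner intensities gave detection and alternative scalings. Its 97 missing values are outlier spots. The number of arrays limits the precision.

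The groups were those of the sample titles. A model with 4 group means was fitted to all 26 arrays with limma 3.58.1 in R 4.3.3 (22 residual degrees of freedom), with Benjamini-Hochberg adjustment over 40168 probes. The fit was tested on simulated data. Scores are means over 18 lymphocyte and 10 muscle genes. Relations to the score were tested with exact permutation over 5040 pairings. The 37 genes, the related lists and the lists of other cell types (lymphocytes, lymph node stroma, dendritic cells, neutrophils, mast cells, adipocytes, fibroblast-like progenitors, endothelium, skeletal muscle, epithelium and red blood cells) were chosen with earlier results of these data known. Values by group are given in full for the 3 genes of each class with the smallest adjusted p in total ChREBP KO, for Cd68, Csf1r, C1qa, Mrc1, Timd4, Siglec1, Trem2, Itgax, Ccr2 and Ccl2, and for genes called in ChREBPβ KO or in the interaction. Of the related lists, the 2 called genes with the largest difference are named, and Adgre1, Spp1, Lyve1, Ly6c2, Csf1 and Il34, except where a result is not reported here. Gas6, Nos2, Cd209f and Ccl24 were named after their values were seen. Nothing says that arrays of 1 group came from separate litters, so p-values measure the spread between these samples. Alternatives were other scalings, backgrounds and filters, blocks for wash batch, replicate, slide and scan day, score covariates, the mean of all probes, and leaving out each array.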

Additional observations from a re-analysis of the deposited data

Results flagged for a closer look

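Values that stood far from the rest of their group were looked for in 148 sets, 37 genes in 4 groups, and 11 were found, where chance flags about 1 in 20 sets. ChREBPβ KO replicate 4 was the highest array of its group by such a gap in 6 genes, with log2 values of 11.58 for Fcgr1, 10.97 for Gpnmb, 13.01 for Aif1, 14.73 for Ctss, 15.73 for Lgals3 and 10.28 for Siglec1. WT replicate 3 of the ChREBPβ line was high in Fcgr1 (11.71) and Siglec1 (10.41), and WT replicate 8 of that line was low in Marco (7.07). Cd163 was low in ChREBPβ KO replicate 1 (10.75), and Gpnmb was high in total ChREBP KO replicate 3 (9.67). The effects of both KOs differed by the interaction term in Marco (2.27), Cx3cr1 (2.04) and Lgals3 (1.18), on the log2 scale. These 3 of 37 genes are a share near the background, since 10.2% of all genes were called in that direction. With the lymphocyte score as a covariate, 0 of the 37 were called.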

How the results depend on the processing

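In ChREBPβ KO 0 of the 37 genes were called in every fit. When the lymphocyte score entered the fit, the genes called were 2 in total ChREBP KO, 0 in the interaction and 1 between the WT groups, and 2, 0 and 1 with the muscle score added. The shares of all genes called in these covariate fits are not given. Leaving out single arrays gave 16 to 24 genes in total ChREBP KO, 3 to 7 in the interaction and 15 to 23 between the WT groups. The interaction rose to 7 without total WT replicate 4 or ChREBPβ WT replicate 6, to 5 without ChREBPβ WT replicate 3 and to 5 with wash batch as a block. With a replicate block the counts were 17, 0, 3 and 18 for total ChREBP KO, ChREBPβ KO, the interaction and the WT groups. Deviations of same-numbered arrays correlated between -0.36 and 0.51, so the numbers were not taken as pairs. A block for scan day, chosen after seeing the data, gave 22, 0, 4 and 21. The median of the interaction was 0.30 without ChREBPβ KO replicate 4, and that between the WT groups was 0.21 without ChREBPβ WT replicate 3 and 0.25 without total WT replicate 4, against 0.61 and 0.40 with all arrays. Of called differences, Tlr4 in total ChREBP KO turned to 0.046 with the mean of all probes. Between the WT groups, Itgax, Cx3cr1, Ctss, Cd84 and Tlr4 turned to 0.24, 0.38, 0.92, 0.34 and 0.083 with the lymphocyte score, and to 0.23, 0.36, 0.83, 0.31 and 0.072 with both scores. With the mean of all probes, Mgl2 was 0.63 and Tlr4 0.29. The cause was not tested. The interaction has no fit on only the groups compared, since it uses all 4.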

Other observations

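Genes of other cell types in the fat pad were counted beside the macrophage genes. In total ChREBP KO against its WT, 3 of 6 dendritic cell genes (Flt3, Xcr1 and Ccl22) and 2 of 6 neutrophil genes (Mpo and Cxcr2) were called lower, and 4 of 6 endothelial genes were called higher. Of all genes, 20.2% were called lower and 25.7% higher in that comparison, and these lists are short. For mast cells (4 genes), fibroblast-like progenitors (8), mammary and skin epithelium (6) and red blood cells (3), 0 genes were called in limma (0, 1, 1 and 0 at an unadjusted p of 0.05). Between the WT groups, Zbtb46 and Cd209a of the dendritic cell genes were called higher in the ChREBPβ line, and Flt3, Xcr1 and Ccl22 lower. All 3 red blood cell genes were called lower there, where 19.7% of all genes were called lower and 26.1% higher.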
